A study of Mus musculus with 6 samples.

Results

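Sestrins and the other brakes of mTORC1, the kinase complex that couples nutrients to cell growth, were followed here as 10 genes fixed by name: Sesn1, Sesn2, Sesn3, Ddit4, Trp53inp1, Tsc1, Tsc2, Deptor, Mtor and Rptor. All 10 had a row among the 23284 gene symbols of the count tables, and 9 of them were among the 10512 genes with enough reads to be tested. Mtor and Rptor are core subunits of the complex and not brakes, and Trp53inp1 is not a part of it. The data were polyadenylated RNA counts from erythroblasts, the nucleated precursors of red cells, sorted as live Ter119+ CD71+ cells from C57BL/6 embryos at E10.5. The null group held 3 libraries of the genotype SETD8fl/fl EpoR Cre, in which Cre recombinase driven from the Epor gene acts in erythroid cells on floxed Setd8, the gene of the enzyme that adds a single methyl group to lysine 20 of histone H4. Of the 3 control libraries, replicates 1 and 3 were Setd8 +/+ EpoRCre and replicate 2 was Setd8 fl/fl EpoR WT, so that the controls differed among themselves in Cre and in the floxed allele. Blood is named as the source in the series design, while the samples themselves are labelled as liver. The labels do not state how many embryos went into a library.

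mTORC1 is switched on at the lysosome by Rag GTPases when amino acids are present and by the small GTPase Rheb when growth factors are present. Sestrins bind the GATOR2 complex and thereby keep the Rag branch off, and Sesn2 is in addition a leucine sensor. Ddit4, also called REDD1, acts through the complex of Tsc1 and Tsc2, which turns Rheb off. Sesn1, Sesn2, Ddit4 and Trp53inp1 are known to be induced by p53 in other settings, Sesn2 and Ddit4 also by ATF4, Ddit4 by hypoxia and glucocorticoids, and Sesn3 by FoxO factors.

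Assigned reads ranged from 7756940 to 21434719 per library, lowest in control replicate 1, where 3 reads correspond to 0.445 CPM (reads scaled to library size by trimmed means, TMM). The libraries formed 2 sets by their titles: control replicates 1 and 2 and null replicate 1 had no trailing letter (unlettered set), and control replicate 3 and null replicates 2 and 3 had one (lettered set). Null and control were therefore compared with the title set as a term (set-adjusted) and again with group alone. The targeted gene Setd8 had a log2 ratio of null to control of -0.83 in the set-adjusted fit (SE 0.17, adjusted p = 0.00911 by edgeR's quasi-likelihood test with Benjamini-Hochberg adjustment over all tested genes). Its level was 73.9, 74.8 and 203.5 CPM in control replicates 1, 2 and 3 and 48.9, 100.3 and 96.3 CPM in null replicates 1, 2 and 3, lower in null within each title set, and with group alone it did not pass (log2 ratio -0.52, adjusted p = 0.702). Whole-gene counts can include exons outside the floxed part. Markers of erythroblasts were abundant in every library. Over 15 matched genes they summed to 527211, 514968 and 348816 CPM in control replicates 1, 2 and 3. In null replicates 1, 2 and 3 the sums were 505562, 247392 and 214882 CPM, lower than in controls within each title set. Control replicate 1 and each null library contained Y-linked transcripts, which were near 0 in the other two controls. As no label ties a replicate to an embryo of its own, the p-values reflect the spread between libraries, which may be technical.

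Of the 9 tested members, 3 rose in null cells set-adjusted: Trp53inp1, Ddit4 and Sesn2. Over all tested genes 8.65% were higher and 4.16% were lower. No member fell by edgeR (0 at an unadjusted p under 0.05 and 0 by DESeq2), and the other 6, Sesn1, Tsc1, Tsc2, Deptor, Mtor and Rptor, did not pass in either direction. With group alone 1 member passed, Trp53inp1, against 1.14% of tested genes higher and 0.00951% lower. In the same 3 members the lowest null library exceeded the highest control library, as in 14.9% of tested genes, and in no tested member did every null library lie below every control, as in 9.16% of tested genes.

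The promoter windows of the members show the sequence next to the start sites of the genes that rose and of their closest relative. RefSeq windows (GRCm38.p6) were given for 8 of the 10 members, with 9 start sites, and none for Trp53inp1 and Deptor. The 250 bases before the start are printed for Sesn2 (chr4:132510457-132510706, minus strand), Ddit4 (chr10:59951771-59952020, minus strand) and the downstream one of both listed start sites of Sesn1 (chr10:41887189-41887438, plus strand), with motif matches in capitals:
Sesn2: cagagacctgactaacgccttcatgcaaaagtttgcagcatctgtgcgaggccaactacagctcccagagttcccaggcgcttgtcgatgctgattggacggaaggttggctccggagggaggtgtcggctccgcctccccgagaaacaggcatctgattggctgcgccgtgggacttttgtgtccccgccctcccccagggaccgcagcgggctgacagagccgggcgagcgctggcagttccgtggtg
Ddit4: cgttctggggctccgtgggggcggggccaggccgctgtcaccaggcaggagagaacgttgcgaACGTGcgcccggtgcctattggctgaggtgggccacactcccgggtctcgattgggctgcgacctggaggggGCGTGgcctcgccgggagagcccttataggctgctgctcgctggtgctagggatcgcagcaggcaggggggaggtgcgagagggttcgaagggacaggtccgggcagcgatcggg
Sesn1: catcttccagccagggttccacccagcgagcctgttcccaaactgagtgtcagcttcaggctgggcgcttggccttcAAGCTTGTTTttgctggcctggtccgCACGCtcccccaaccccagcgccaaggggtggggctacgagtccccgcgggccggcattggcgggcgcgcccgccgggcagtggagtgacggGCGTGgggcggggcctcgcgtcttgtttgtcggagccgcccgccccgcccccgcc
Both strands were searched for the core of the hypoxia element, written ACGTG or GCGTG, and for the ATF4 element TGATGNAAT. Also searched were the E-box CACGTG, which contains the first hypoxia core, the FoxO element TGTTTAC and the consensus decamer of p53. This decamer is a part of the full p53 element and not the whole. Ddit4 held ACGTG at 187 to 183 bases and GCGTG at 115 to 111 bases before its start. These letters occur in 16.6% and 28.2% of the 32851 RefSeq windows of this length. The shares given here were not matched for GC content, whose median over all windows was 52.4%. Among the members' windows it ran from 37.6% for Rptor to 71.2% for the printed Sesn1 window, with 70.0% for Ddit4. Among members that did not pass, Rptor held both forms too, at 34 to 30 and 14 to 10 bases before its start, and Tsc1 and Tsc2 held GCGTG on the other strand, at 6 to 2 and 65 to 61 bases. The printed Sesn1 window held a p53 decamer at 173 to 164 bases before the start, found in 7.13% of all windows. This window also held the GCGTG core at 55 to 51 bases and, on the other strand, at 147 to 143 bases. The window of the upstream Sesn1 start site, which is not printed, held none of the letters searched. The Sesn2 window held none of the letters searched, and the ATF4 element, the E-box and the FoxO element, found in 0.816%, 6.02% and 3.17% of all windows, were in no member's window. A match is a description of the letters and no evidence of binding.

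Trp53inp1, a stress-induced protein that promotes autophagy and p53 activity, went from scarcely expressed to the highest of the 10 genes per exon length. Its level was 0.889, 0.533 and 2.42 CPM in control replicates 1, 2 and 3 (6, 10 and 52 reads) and 94.1, 122.6 and 112.5 CPM in null replicates 1, 2 and 3 (1611, 2388 and 2176 reads). The lowest null library thus stood far above the highest control, and the 3 null libraries were close to each other. The set-adjusted log2 ratio was 6.24 (SE 0.35, 75.7-fold, adjusted p = 1.97e-06, edgeR quasi-likelihood), and with group alone it was 6.37 (adjusted p = 0.0113). Within the unlettered set the difference of mean log2 CPM was 6.87 and within the lettered set 5.54. It passed under all 16 alternatives tried, and its log2 ratio was 7.16 without control replicate 3 and 5.59 without null replicate 1.

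Sesn2, a leucine-sensing sestrin, was the sestrin that rose. Control replicates 1, 2 and 3 had 1.19, 0.426 and 7.58 CPM (8, 8 and 163 reads), and null replicates 1, 2 and 3 had 23.5, 73.5 and 44.7 CPM (403, 1431 and 865 reads). The groups did not overlap, but the lettered control stood above both unlettered controls, and both lettered null libraries above the unlettered one. Set-adjusted, Sesn2 rose by a log2 ratio of 3.81 (SE 0.49, 14.0-fold, adjusted p = 0.000710, edgeR quasi-likelihood). With group alone the ratio was 3.91 and did not pass (adjusted p = 0.139), and with Y-linked transcripts as a further term it was 3.81 and did not pass either (adjusted p = 0.0700). The log2 ratio was 5.08 without control replicate 3 and 2.95 without null replicate 1, and each of these fits compares the groups within a single title set.

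Ddit4, the inhibitor of mTORC1 that works through the TSC complex, was close to undetected in controls. It had 2, 1 and 7 reads in control replicates 1, 2 and 3 (0.296, 0.0533 and 0.326 CPM, with an exact 2-sided 95% Poisson upper limit of 1.07, 0.297 and 0.671 CPM for counting error) and 76, 326 and 91 reads in null replicates 1, 2 and 3 (4.44, 16.7 and 4.70 CPM). Every null library lay above the upper limit of every control, and null replicate 2 stood apart from the other two null libraries. The set-adjusted log2 ratio was 4.99 (SE 0.90, 31.8-fold, adjusted p = 0.00460, edgeR quasi-likelihood). With group alone Ddit4 did not pass (log2 ratio 5.27, adjusted p = 0.0647), nor with Y-linked transcripts as a further term (3.69, adjusted p = 0.245). Without null replicate 2 the log2 ratio was 4.32 (adjusted p = 0.0528) and without null replicate 1 it was 5.0 (adjusted p = 0.122), so that Ddit4 lost its call without either library. In these bulk samples more RNA per cell and a larger share of expressing cells cannot be told apart, for Ddit4 as for the other members.

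**Figure D1:**
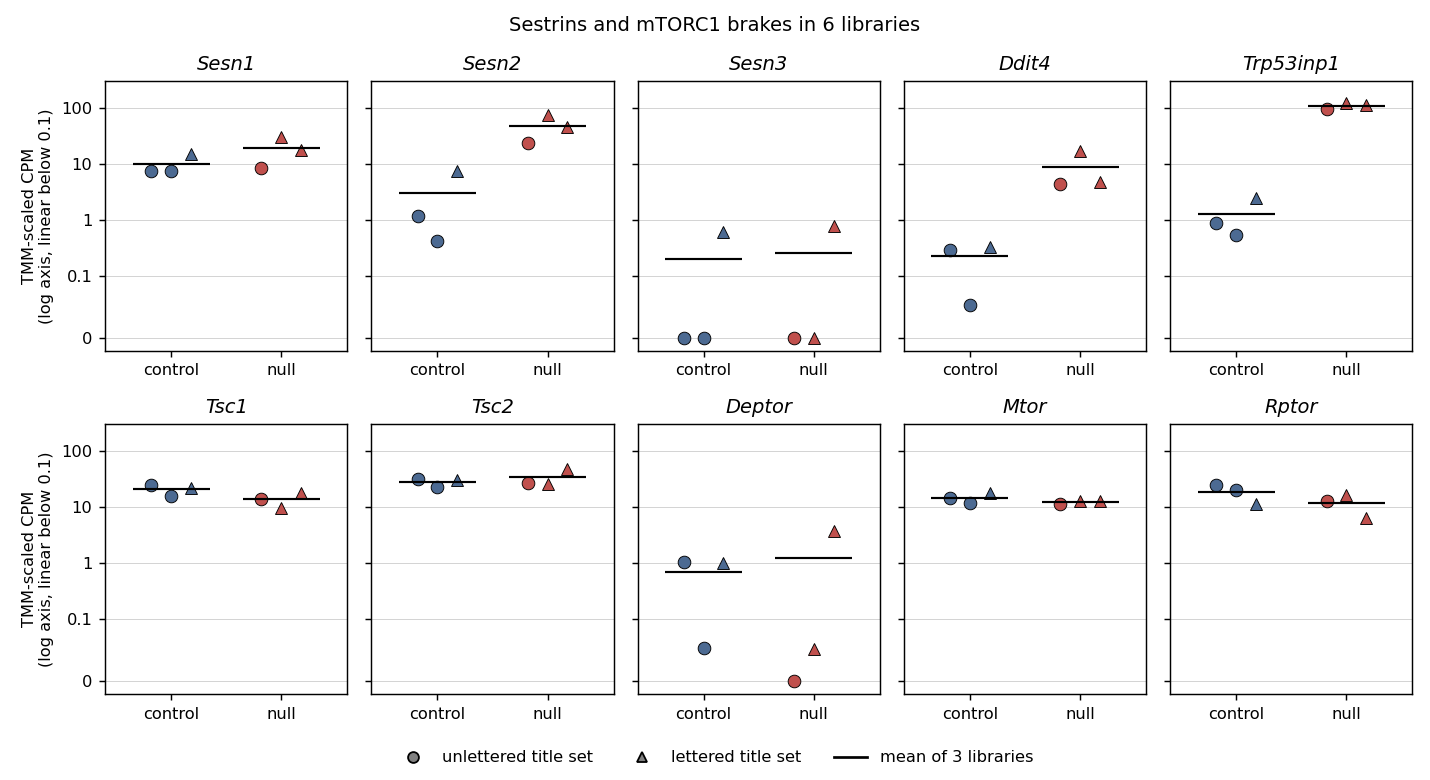
Level of each of the 10 genes in the 6 libraries, as TMM-scaled CPM on a log axis that is linear below 0.1; circles are the unlettered and triangles the lettered title set, and the bar is the mean of 3 libraries. The null libraries of Trp53inp1 (94.1 to 122.6 CPM), Sesn2 (23.5 to 73.5) and Ddit4 (4.44 to 16.7) lie above all controls, and the other panels overlap.

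Sesn1, the sestrin with the highest control level, did not pass. It stood at 7.56, 7.46 and 15.2 CPM in control replicates 1, 2 and 3 and at 8.53, 30.2 and 17.6 CPM in null replicates 1, 2 and 3. In each title set its null libraries were the higher ones, but null replicate 1 lay below control replicate 3 and the groups overlapped. The set-adjusted log2 ratio was 0.42 (SE 0.37, 95% interval -0.38 to 1.23, adjusted p = 0.504, edgeR quasi-likelihood). Sesn3 was not tested, since it had 13 reads in control replicate 3, 15 in null replicate 3 and 0 in the other libraries. These are 0.605 and 0.775 CPM, and a count of 0 there allows a level of up to 0.154 to 0.445 CPM (3 reads, a 1-sided limit used for counts of 0). Sesn3 was thus read in a single library of each group, both lettered, and a difference between groups was not detectable at this depth.

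Between Sesn2 and Sesn1, the share of reads within a library does not depend on how libraries are scaled. Sesn2 made up 13.6% of the reads of both genes in control replicate 1 (95% Wilson interval 7.03% to 24.5%), 5.41% in replicate 2 (2.76% to 10.3%) and 33.3% in replicate 3 (29.2% to 37.6%). In null replicates 1, 2 and 3 it made up 73.4% (69.6% to 76.9%), 70.8% (68.8% to 72.8%) and 71.8% (69.2% to 74.3%). The share was thus nearly equal in the 3 null libraries, at 72.0% ± 1.30 (SD, n = 3), and uneven in controls, at 17.4% ± 14.3 (SD, n = 3), while the level of both genes in null cells varied between libraries. A 2-sided exact permutation test gave p = 0.1, the smallest that 3 against 3 libraries allow, and 0.2 after Benjamini-Hochberg adjustment over the 4 pairs of members compared. Intervals of shares cover counting error and no other error.

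**Figure D2:**
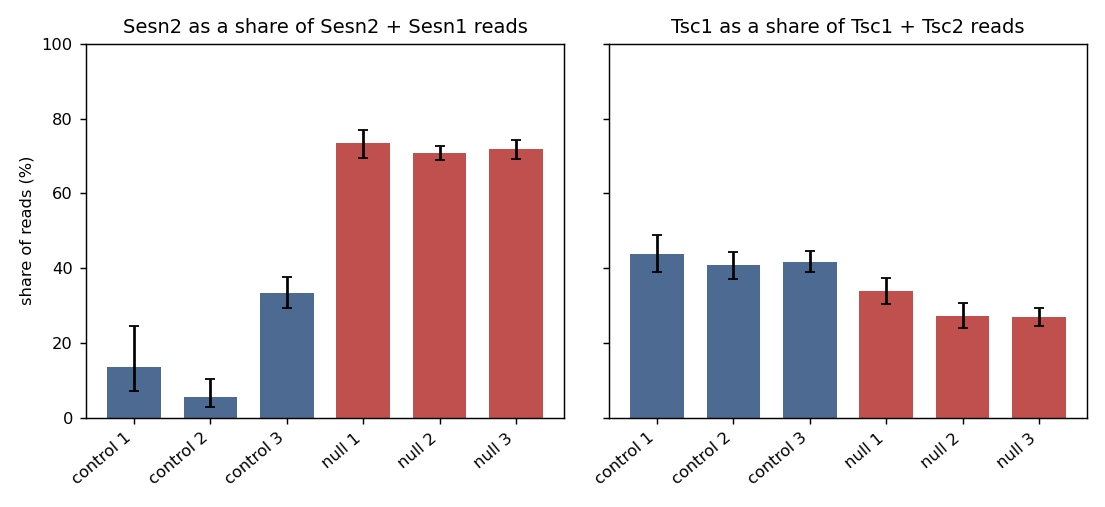
Share of Sesn2 in the reads of Sesn2 and Sesn1 (left) and of Tsc1 in the reads of Tsc1 and Tsc2 (right), in percent, 1 bar per library with its 95% Wilson interval. The Sesn2 share is 5.41% to 33.3% in controls and 70.8% to 73.4% in null libraries, and the Tsc1 share 40.7% to 43.9% and 26.8% to 33.8%.

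The subunits of the TSC complex, the brake on Rheb, did not pass. Tsc1, which stabilises the complex, was at 24.6, 15.7 and 21.5 CPM in control replicates 1, 2 and 3 and at 13.7, 9.76 and 17.8 CPM in the null replicates. Its set-adjusted log2 ratio was -0.60 (SE 0.35, 95% interval -1.36 to 0.17, adjusted p = 0.301, edgeR quasi-likelihood), and it was negative in both title sets. Tsc2, the subunit with the GTPase-activating domain, was at 31.4, 22.8 and 30.0 CPM in controls and 26.8, 26.1 and 48.7 CPM in null replicates 1, 2 and 3. Its ratio was near 0 (log2 0.16, SE 0.30, 95% interval -0.51 to 0.82, adjusted p = 0.791), with null replicate 3 above the other libraries. Without that library the log2 ratio of Tsc2 was -0.17, without control replicate 3 -0.027.

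Relative to Tsc2, Tsc1 took a smaller share of reads in every null library than in any control. The share of Tsc1 in the reads of both genes was 43.9%, 40.7% and 41.7% in control replicates 1, 2 and 3 and 33.8%, 27.2% and 26.8% in null replicates 1, 2 and 3. That is 42.1% ± 1.62 against 29.3% ± 3.91 (SD, n = 3 each; exact 2-sided permutation p = 0.1, the smallest possible, adjusted p = 0.2 over the 4 pairs). In the GENCODE annotation 693 bases, or 10.9% of the exon bases of Tsc2, lie under exons of Pkd1 on the opposite strand, and whether the counting used strand is not stated. Pkd1 was at 7.56, 4.95 and 1.12 CPM in controls and 3.74, 9.19 and 9.72 CPM in null replicates 1, 2 and 3, and its part in the Tsc2 counts was not tested.

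Among the genes of the kinase complex itself, Mtor and Rptor did not pass and Deptor was close to undetected. Mtor, the kinase, was at 14.5, 11.7 and 17.7 CPM in control replicates 1, 2 and 3 and 11.2, 13.0 and 12.6 CPM in null replicates 1, 2 and 3, a log2 ratio of -0.35 (SE 0.33, 95% interval -1.07 to 0.38, adjusted p = 0.552, edgeR quasi-likelihood). Rptor, the scaffold that recruits substrates, was at 24.5, 20.3 and 11.5 CPM in controls and 12.9, 16.7 and 6.25 CPM in null replicates, a log2 ratio of -0.40 (SE 0.44, 95% interval -1.36 to 0.56, adjusted p = 0.610). Both intervals exclude a rise of 2-fold and leave room for a fall of that size. Deptor, an inhibitor bound to the kinase, had 7, 1 and 22 reads in controls and 0, 1 and 72 in null replicates 1, 2 and 3, so that null replicate 3 held 72 of its 103 reads. Its log2 ratio of -1.05 (SE 2.34, 95% interval -6.17 to 4.07, adjusted p = 0.817) turned to 0.86 with group alone and carries no direction.

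**Figure D3:**
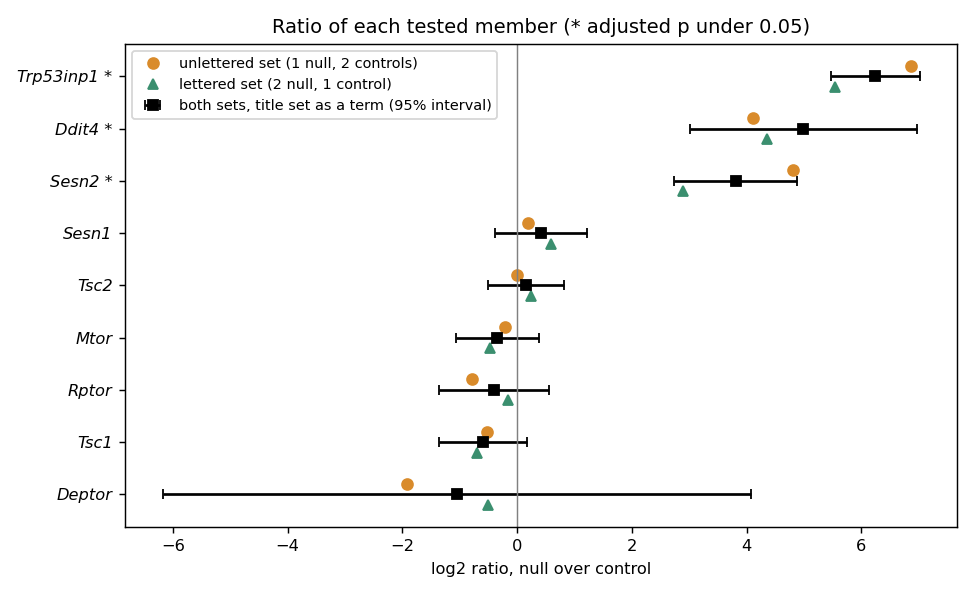
Log2 ratio of null to control for the 9 tested members: squares are the set-adjusted ratio with its 95% interval, circles and triangles the difference of mean log2 CPM within the unlettered and lettered title set. Trp53inp1 (6.24), Ddit4 (4.99) and Sesn2 (3.81) are marked as passing, the intervals of the other 6 include 0, and Deptor has the widest.

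Ratios could differ between the title sets, and this was tested by the interaction of group and title set. No member passed by edgeR (0 also with RLE scaling), against 0.00951% of tested genes, or 1 of 10512, in a fit with 2 residual degrees of freedom. At an unadjusted p under 0.05 there were 758 of the 10512 tested genes and 2 members: Trp53inp1, whose log2 ratio was 1.57 larger in the unlettered set (adjusted p = 0.568), and Sesn2, with 2.12 (adjusted p = 0.609). In both, the control level was higher in the lettered set, by the values given above.

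Per exon length the order of the members changed between groups. Lengths are those of the merged exons of each gene in GENCODE vM21, from 1755 bases for Ddit4 to 9496 for Sesn3. In controls Tsc2 led, at 4.43 ± 0.725 CPM per kilobase (SD, n = 3), followed by Rptor at 2.85 ± 1.0, Tsc1 at 2.66 ± 0.583 and Sesn1 at 2.54 ± 1.12, which did not differ beyond their spread, and Mtor at 1.67 ± 0.342. Sesn2 at 0.882 ± 1.13, Trp53inp1 at 0.237 ± 0.185, Ddit4 at 0.128 ± 0.0852, Deptor at 0.0794 ± 0.0636 and Sesn3 at 0.0212 ± 0.0368 CPM per kilobase came last, each within the spread of its neighbour. In null cells Trp53inp1 was first at 20.3 ± 2.67 CPM per kilobase and Sesn2 second at 13.6 ± 7.21, which overlapped. Tsc2 at 5.35 ± 2.02, Ddit4 at 4.92 ± 4.0 and Sesn1 at 4.74 ± 2.75 were level within their spread, and so were Rptor at 1.81 ± 0.80, Tsc1 at 1.78 ± 0.522 and Mtor at 1.40 ± 0.106 CPM per kilobase, with Deptor at 0.142 ± 0.240 and Sesn3 at 0.0272 ± 0.0471 last.

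Ddit4l, the close relative of Ddit4 also called REDD2, rose as well. It had 1 read in the 3 controls together and 15.4, 21.5 and 6.41 CPM in null replicates 1, 2 and 3, that is 805 reads, or a 677-fold difference (95% interval from counting error 121 to 26765). It passed set-adjusted (adjusted p = 0.000197) and with group alone (adjusted p = 0.0172, edgeR quasi-likelihood). In null replicates 1, 2 and 3 its level exceeded that of Ddit4 itself, which was 4.44, 16.7 and 4.70 CPM, on a scale that is not corrected for length. Trp53inp2, the relative of Trp53inp1, did not pass the filter on low counts and was not tested. It stood at 0.148, 0 and 0 CPM in control replicates 1, 2 and 3 and 2.57, 4.93 and 0.207 CPM in null replicates 1, 2 and 3.

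Other genes of the mTORC1 pathway, from lists fixed by name, mostly did not pass. Of 11 tested further subunits of mTORC1, mTORC2, the TSC complex and the Rheb switch, 0 rose and 1 fell: Telo2, a chaperone of the kinase, from 28.2 ± 8.64 to 14.3 ± 4.12 CPM (log2 ratio -1.21, adjusted p = 0.0152). Of 27 tested Rag GTPases, Ragulator, GATOR and sensor genes, 1 rose and 0 fell: Nprl3, a GATOR1 subunit whose gene lies beside the alpha-globin cluster, from 17.8 ± 5.73 to 39.6 ± 9.83 CPM (log2 ratio 1.42, adjusted p = 0.00716). Of 29 tested kinases and phosphatases upstream of the TSC complex, 1 rose and 2 fell. Irs2, an adaptor of insulin signalling, rose (log2 ratio 1.53, adjusted p = 0.00422), though at 61.3 CPM control replicate 3 exceeded null replicate 1 at 20.5. Stk11, the kinase upstream of AMPK, fell from 57.5 ± 9.04 to 34.9 ± 1.31 CPM (log2 ratio -0.76, adjusted p = 0.0338), and Prkag2, a regulatory AMPK subunit, from 65.7 ± 2.14 to 39.5 ± 4.08 (log2 ratio -0.79, adjusted p = 0.0224). The median log2 ratios of these 3 lists were -0.34, -0.024 and -0.058, beside 0.044 over all tested genes. The counts stand beside 8.65% of all tested genes higher and 4.16% lower. With group alone 0 of the genes of these 3 lists passed, where 1.14% of all tested genes were higher and 0.00951% lower.

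Among 21 tested substrates and readers of mTORC1, 5 rose and 3 fell set-adjusted, with a median log2 ratio of 0.22. Beside them stand 8.65% of all tested genes higher and 4.16% lower, or 1.14% and 0.00951% with group alone. Lpin1, a phosphatidate phosphatase that mTORC1 keeps out of the nucleus, stood at 1.04, 1.65 and 0.884 CPM in control replicates 1, 2 and 3 and 80.9, 86.3 and 47.0 CPM in null replicates 1, 2 and 3 (log2 ratio 6.01, SE 0.36, adjusted p = 3.12e-06). It was the gene of this list that passed with group alone too (adjusted p = 0.00667, edgeR quasi-likelihood). Ulk1, the kinase that starts autophagy and is restrained by mTORC1, rose from 7.92 ± 5.07 to 34.0 ± 7.5 CPM (log2 ratio 2.16, adjusted p = 0.0121). Pdcd4, a translation inhibitor, rose by a log2 ratio of 2.53 (adjusted p = 0.0107), with null replicates 2 and 3 at 4.31 and 4.14 CPM within the range of controls (0.605 to 4.9 CPM). Eef2k, the kinase that slows translation elongation, fell by 1.62 on the log2 scale (adjusted p = 0.0464), the translation regulator Larp1 by 0.92 (adjusted p = 0.00560) and the cap-binding factor Eif4e by 0.60 (adjusted p = 0.0238). For Larp1 and Eif4e the levels of the groups overlapped between title sets.

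Genes known to be induced with the members by the same regulators were counted as well, and the reference targets of p53 moved most. Of 18 tested p53 genes 16 rose and 0 fell (9 and 0 with group alone), with a median log2 ratio of 3.28. They ranged from Fas, which had no control read and was at least 189-fold higher against 3 reads over the control group, Eda2r (log2 ratio 7.10) and Plk2 (6.42) to Ei24 (1.70), Bax (1.57) and Aen (1.52), with Cdkn1a (6.21) and Mdm2 (3.34) between them. Trp53, the gene of p53 itself, was not among those that rose. It was at 251, 246 and 129 CPM in control replicates 1, 2 and 3 and 275, 136 and 146 CPM in the null replicates. The reference targets were chosen with earlier results of these libraries known. Of 18 tested genes of the integrated stress response, which acts through ATF4, 5 rose and 1 fell, with a median log2 ratio of 0.40. Those that rose were Cebpb (3.38), Ddit3 (1.72), Trib3 (1.07), Ppp1r15a (0.61) and Mthfd2 (0.57), and the amino acid transporter Slc7a5 fell by 1.02 on the log2 scale. The groups were separate for Ddit3 and Ppp1r15a and overlapped for Cebpb, Trib3, Mthfd2 and Slc7a5. Atf4 itself had a log2 ratio of -0.18 (95% interval -0.54 to 0.19) and did not pass.

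Of 12 tested FoxO factors and FoxO-regulated genes 4 rose and 0 fell, with a median log2 ratio of 0.91: Txnip (5.05), Ccng2 (3.61), Gadd45a (1.64) and Cat (0.71). Of 14 tested hypoxia-inducible genes 3 rose and 0 fell, Ero1l (1.58), Bnip3 (1.30) and Bnip3l (0.60), with a median of 0.52. The levels of the groups overlapped for each of these 3, and for Ero1l control replicate 3 at 76.4 CPM exceeded null replicate 1 at 50.8. Of 9 tested glucocorticoid-inducible genes 2 rose and 0 fell, Dusp1 (1.02) and Mt1 (0.97), with a median of 0.74. Both overlapped: Dusp1 was at 90.5 CPM in control replicate 3 and 23.4 in null replicate 1, and Mt1 in null replicate 3, at 1323 CPM, was below every control (1330 to 2000 CPM). With group alone, none of the stress response, FoxO, hypoxia or glucocorticoid genes passed. These are counts within lists, read against 8.65% of all tested genes higher and 4.16% lower, and the lists were not tested as sets.

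**Figure D4:**
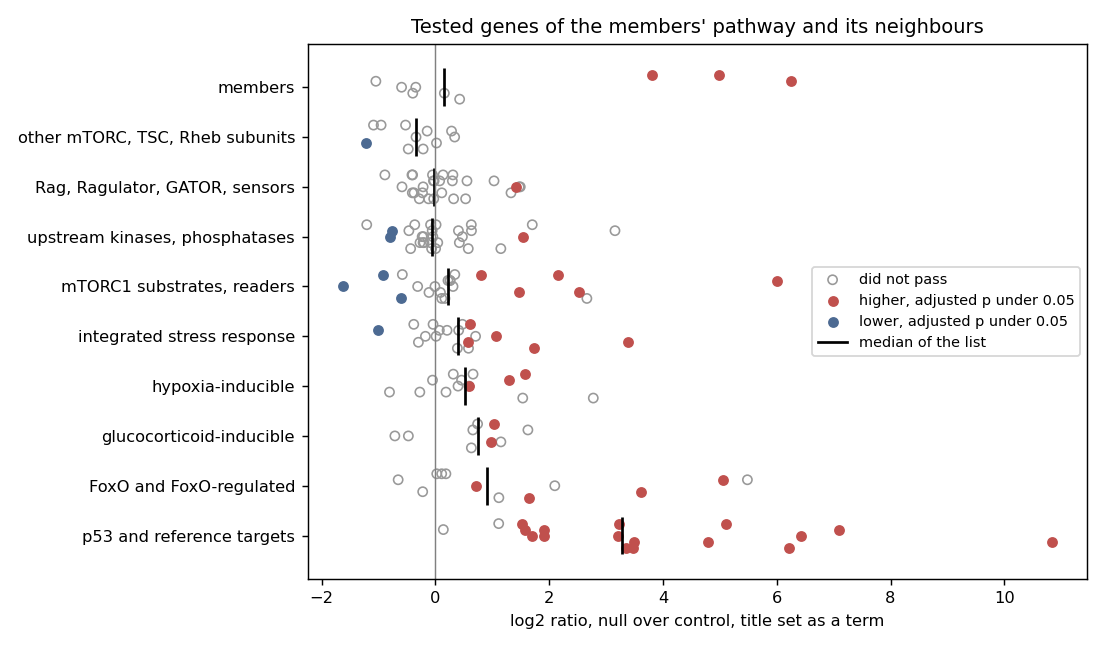
Set-adjusted log2 ratio of null to control for every tested gene of the members and of 9 further lists, with filled points for genes that passed (red higher, blue lower) and a bar at the median of each list. Medians run from -0.34 for the other complex subunits to 3.28 for the p53 genes, and the median of the 9 tested members is 0.16.

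Summed markers of macrophages, megakaryocytes, endothelium and liver, but not of mesenchyme, were higher in every null library than in any control, as were Trp53inp1, Sesn2 and Ddit4. Some of these sums rest mostly on the few genes named below. The 16 macrophage markers summed to 2.34 to 12.0 CPM in controls and 38.9 to 108.8 CPM in null libraries, and 4 of 9 tested rose. Megakaryocyte markers summed to 27.9 to 48.1 and 91.8 to 142.7 CPM (2 of 6 tested rose), endothelial markers to 0.533 to 1.49 and 5.79 to 20.7 CPM (2 of 2), hepatic markers to 1.63 to 5.53 and 12.8 to 28.5 CPM (1 of 3) and mesenchymal markers to 0.296 to 3.81 and 0.155 to 3.54 CPM (0 of 1). The genes that rose were Csf1r, Cd68, Tyrobp and C1qb of macrophages, Itga2b and Itgb3 of megakaryocytes, Pecam1 and Tek of endothelium and Krt18 of the hepatic list, which stood at 0, 0 and 1.12 CPM in control replicates 1, 2 and 3 and 18.9, 11.1 and 5.17 CPM in null replicates 1, 2 and 3. Itga2b and Itgb3 made up most of the megakaryocyte sum, at means of 51.3 and 48.2 CPM in null libraries. Gp9 of the same list went the other way, with every null library below every control. Its level was 5.35 ± 0.736 CPM in controls and 4.06 ± 0.370 CPM in null libraries, and it did not pass. Pf4 overlapped, at 4.19 CPM in control replicate 3 and 0.175 CPM in null replicate 1. Tek and Pecam1 made up most of the endothelial sum in null libraries. They were at 12.7, 6.06 and 3.10 CPM and 4.09, 2.36 and 2.38 CPM in null replicates 1, 2 and 3. Esam was higher in every null library too. Cdh5 was at 0, 0 and 0.0517 CPM in the null replicates, and Kdr at 2.75, 0 and 0 CPM. Tie1 was highest in control replicate 3, at 0.326 CPM. Krt18 and Krt8 made up most of the hepatic sum in null libraries. Krt8 was at 0.741, 1.22 and 0 CPM in controls and 3.51, 1.49 and 3.72 CPM in null replicates 1, 2 and 3. Afp of the hepatic list was at 2.28 CPM in control replicate 3 and 0.584 CPM in null replicate 1. Ttr and Hnf4a did not exceed 0.526 and 0.351 CPM in any library. Of the other macrophage markers, Cx3cr1, Aif1, Fcer1g and C1qa were higher in every null library than in any control. Ptprc, Emr1, Cd14, Fcgr1, Mrc1, Lyz2, C1qc and Itgam overlapped. Mrc1 was at 1.21 CPM in control replicate 3 and 0.770 CPM in null replicate 2. C1qc was at 2.74 CPM in control replicate 3 and 1.87 CPM in null replicate 1. No macrophage marker was at 0 in all null libraries. Emcn and Cldn5 of the endothelial list, Alb and Fgb of the hepatic list, Ppbp of the megakaryocyte list and Pdgfrb, Dcn, Lum and Postn of the mesenchymal list had no read in any null library. Among erythroblast markers 0 rose and 5 of 13 tested fell. All these marker counts stand beside 8.65% of all tested genes higher and 4.16% lower. Tfrc, the gene of the CD71 antigen used in the sort, was among the 5 that fell, from 425.8 ± 24.0 to 243.5 ± 45.0 CPM. The part of these cells in the results on the members was not tested.

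**Figure D5:**
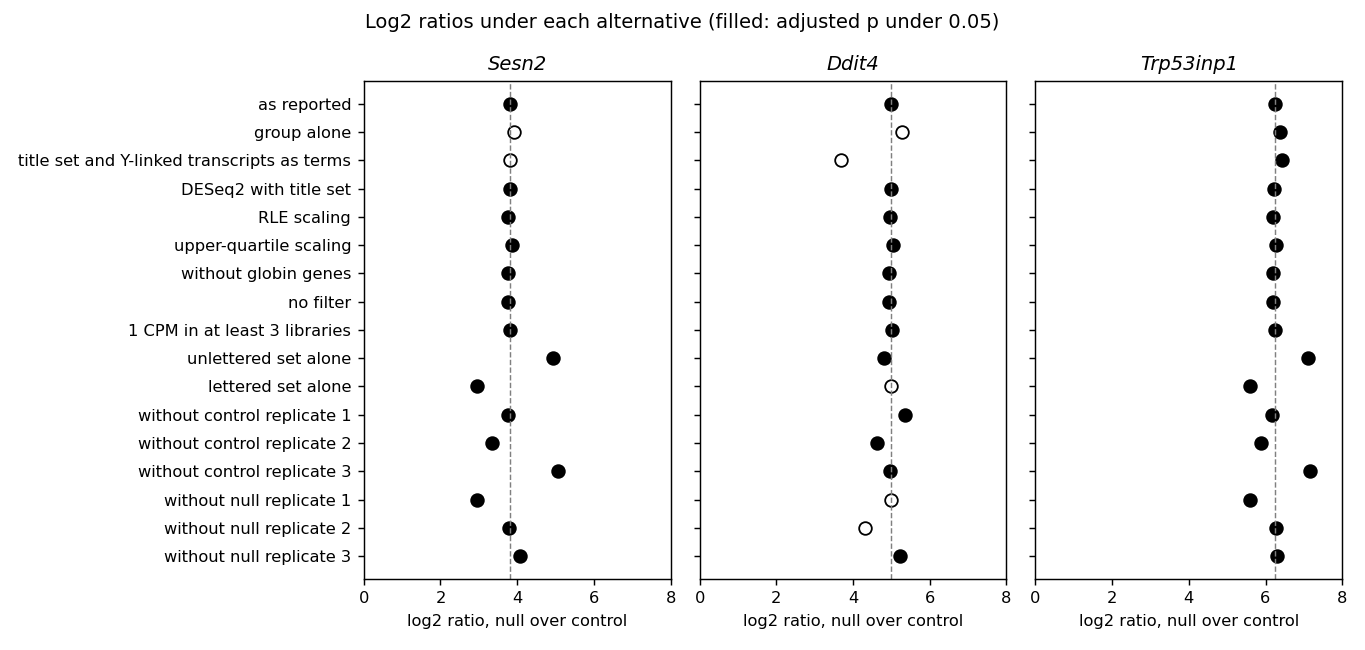
Log2 ratio of null to control for Sesn2, Ddit4 and Trp53inp1 under each alternative (filled points passed, open points did not), with a dashed line at the reported value. Every point lies above 0, Trp53inp1 passed under 16 of 16 alternatives, Sesn2 under 14 and Ddit4 under 11.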

How the data were processed

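For each library the deposited table holds raw read counts by gene symbol. The submitters' processing notes name build mm9 and the tools HTSeq 0.6.1, TopHat2 2.1.0, Trimmomatic 0.32, edgeR and FastQC, but neither their order nor their options. Lines without a gene were left out, and the lettered tables list no such lines. For the unlettered libraries (control replicate 1, control replicate 2, null replicate 1), reads in no feature made up 42.9%, 7.72% and 6.07%, reads not aligned uniquely 24.1%, 22.5% and 32.4%, and ambiguous reads 0.657%, 2.17% and 2.35%. There, 25 symbols turned into dates were mapped back to the March and Septin genes. Assigned totals of 7756940 to 21434719 reads set the precision. Pairs of libraries from the same group gave chi-square values per degree of freedom between 21.9 and 369.1, so none was treated as a duplicate.

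Counts were fitted in R 4.3.3 with edgeR 4.0.16 across all genes (filterByExpr on group, TMM factors, estimateDisp, glmQLFit with robust=TRUE, glmQLFTest, 2-sided), with title set and group as terms and 3 residual degrees of freedom, at an adjusted p of 0.05. SE is the log2 ratio divided by the square root of F. Differences within a title set use log2 CPM with a prior count of 2. Older symbols of list genes were matched through RefSeq synonyms. DESeq2 1.42.0, other scalings and filters, other terms and left-out libraries were the alternatives. The fit was tested on simulated data. The 4 pairs of members compared by share were chosen after the files were seen. The members were fixed by name. From each pathway list every gene that passed was named, or the 3 highest and 3 lowest where over 6 did. Of the erythroblast markers that fell, only Tfrc was named. Members, lists and rules were chosen with earlier results of these data known.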

Additional observations from a re-analysis of the deposited data

How the results depend on the processing

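Of the 3 members that rose, 1 passed with group alone and 1 with title set and Y-linked transcripts as terms, Trp53inp1 in both. By DESeq2, under RLE or upper-quartile scaling, without globin genes, without a filter, with 1 CPM in at least 3 libraries and in the unlettered set alone 3 passed, and in the lettered set alone 2. With 1 library left out 2 or 3 passed, 2 without null replicate 1 and 2 without null replicate 2. Members that fell numbered 0 throughout. Over all tested genes, 909 were higher and 437 lower; with group alone these were 120 and 1, with Y-linked transcripts 161 and 62, and in the lettered set alone 265 and 20. Lower genes numbered 900 by DESeq2, 723 without a filter and 805 in the unlettered set alone. Without 1 library, 162 to 869 were higher and 40 to 734 lower, both fewest without null replicate 1 and most without null replicate 3. Fewer libraries compare the groups where 1 is left out or 1 title set is used alone. The cause of the changed counts was not tested.

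Tsc2 and Deptor, which did not pass, changed sign. Tsc2 had a log2 ratio of -0.20 with Y-linked transcripts and -0.069 in the unlettered set alone, and -0.17 to 0.31 with 1 library left out, the lowest of them without null replicate 3 and the next, -0.027, without control replicate 3. Deptor had 0.86 with group alone, 0.90 in the lettered set alone, and -6.10 to 0.87 with 1 library left out (0.16 without control replicate 1, 0.87 without null replicate 1), and it had no value in the unlettered set alone or with 1 CPM in at least 3 libraries. Sesn1, Tsc1, Mtor and Rptor kept their direction in all 16 alternatives and passed in none. Depth limits Sesn3, Deptor and the control level of Ddit4, which rest on 28, 103 and 10 reads. No paired analysis was possible because the labels give no replicate numbers that the groups share.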

Other observations

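Some patterns across the 6 libraries are given as values. After centring log2 CPM within each title set, Sesn2 had a Pearson r of 0.955 with Ddit4 and 0.978 with Trp53inp1, and Ddit4 0.956 with Trp53inp1, each over 6 libraries that share the group difference. With so few libraries such values are common: 5.51%, 4.93% and 6.92% of the other tested genes had an r above 0.95 with Sesn2, Ddit4 and Trp53inp1. The genes most like Sesn2 were Map1lc3b, a protein of the autophagosome membrane (r = 0.999), Prr13 (0.999) and Srxn1, which repairs oxidised peroxiredoxins (0.999). Those most like Trp53inp1 were Hmox1, the heme oxygenase (0.999), Cyb5d1 (0.999) and the peroxiredoxin Prdx1 (0.999). Ldb3, Eng and Sacm1l were most like Ddit4 (0.9999, 0.9996 and 0.9991). Likeness did not require a difference between groups. Cyb5d1 (log2 ratio 0.29, adjusted p = 0.838) and Sacm1l (0.20, adjusted p = 0.646, edgeR quasi-likelihood) did not pass set-adjusted, and the other genes named as most like a member were higher in null.

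The ratio of Ddit4 to Sesn2 did not separate the groups: Ddit4 made up 11.7% ± 7.96 of the reads of both in controls and 14.6% ± 4.64 in null libraries (SD, n = 3 each; exact 2-sided permutation p = 0.7, 0.7 adjusted over 4 pairs). Rptor made up 62.7%, 63.5% and 39.3% of the reads of Rptor and Mtor in control replicates 1, 2 and 3 and 53.4%, 56.2% and 33.2% in null replicates 1, 2 and 3 (exact permutation p = 0.5, 0.667 adjusted). Its lowest values were those of control replicate 3 and null replicate 3, both lettered, while null replicate 2, lettered as well, was near the unlettered libraries.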
